A study of Mus musculus with 38 samples.

Results

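Ribosome-bound RNA of Olig2 cells from Pdgf tumours of mice was compared with ribosome-bound RNA of Olig2 cells from normal mouse cortex. The arrays were chosen by their titles and source labels: 3 arrays of Olig2 cells from Pdgf tumours and 3 arrays of cortical oligodendroglia, 6 of the 38 arrays of the series. The series holds 2 datasets, one of normal cell types of the cortex and one of several variants of a mouse glioma model. All samples carried the same mixture of strains, c57/bl6j, FVB and Swiss-Webster. The tumour samples were dissected tumours of mice in which a tumour had been induced; how it was induced, the age of the mice and any pooling are not given in the sources used here. The cortical samples were dissected from adult wild-type mice, each from a pool of at least 2 mice. Both groups are named for Olig2, a transcription factor of oligodendrocytes and their progenitors, so each holds the whole mixture of Olig2 cells in its tissue and not 1 stage of the lineage. In Translating Ribosome Affinity Purification (TRAP), a tagged ribosomal protein is made only in cells that use a chosen gene's regulatory DNA, and RNA on the tagged ribosomes is pulled out of the tissue lysate. The RNA was amplified in 2 cycles, labelled with biotin and hybridized to 1-colour Affymetrix arrays. Below, the groups are called Pdgf tumour Olig2 cells and cortical Olig2 cells.

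Platelet-derived growth factor (PDGF) acts on oligodendrocyte progenitors through the receptor PDGFRα, encoded by Pdgfra, and keeps them dividing. Normal progenitors that leave the cell cycle pass through a committed stage marked by genes such as Gpr17, Bmp4 and Enpp6, and then switch on the myelin genes under the transcription factor Myrf. The adult cortex holds cells at each of these stages.

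All 9799 tested genes had a level above log2 50 (5.64) in at least 3 of the 38 arrays. A level at or under that limit is called dim. All levels and differences below are on the log2 scale after quantile normalization over the 38 arrays, differences are Pdgf tumour minus cortical with their standard error (SE) from limma, and the p-values are limma's after Benjamini-Hochberg adjustment over the 9799 genes. Each SE and p-value rests on 1 spread per gene, pooled over all 12 groups of the 38 arrays, and not on the 6 arrays alone. The threshold was an adjusted p under 0.05 together with at least a 2-fold difference; genes beyond it are said to have passed, to have risen or to have fallen. Where a gene was dim on all 3 arrays of one group, only a lower bound on the fold is given, the brighter group's mean set against the dim limit. No fold is given where both groups were dim. The gene groups below are 37 lists with 611 entries, of which 524 were measured, and a gene can stand in more than 1 list.

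In all, 3133 genes passed, which is 32.0% of those tested, 1567 of them higher in Pdgf tumour Olig2 cells (16.0%) and 1566 lower (16.0%). Each count of list members against cortical Olig2 cells below is to be read beside these shares. Of the 3133, 3098 had levels that did not overlap between the groups. The median difference over all tested genes was 0.06 and the median SE 0.24. A positive difference was held by 5194 of the 9799 tested genes, and counts of positive differences in lists below are to be read beside this. Of the genes that rose, 739 were dim on all 3 cortical arrays, and of those that fell, 807 were dim on all 3 tumour arrays; 220 and 271 of these were dim on all 6 arrays. Correlations between arrays were 0.982 to 0.991 among Pdgf tumour arrays, 0.987 to 0.996 among cortical arrays and 0.844 to 0.859 between the groups. The 3′ minus 5′ probe set difference, a measure of RNA integrity and amplification length, was 2.93 to 4.12 for Gapdh on tumour arrays and 1.96 to 2.59 on cortical arrays, with no overlap. For actin it was 2.55 to 3.67 and 2.57 to 2.99. Its part in the results was not tested. The deposited values of each of the 12 groups shared a minimum of their own. It was 2.11228 in the tumour arrays, 2.11078 in the cortical arrays and 2.03961 in Pdgf tumour total RNA. The arrays thus appear to have been processed group by group, though no label gives a processing batch. Processing and group therefore cannot be told apart.

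**Figure D1:**
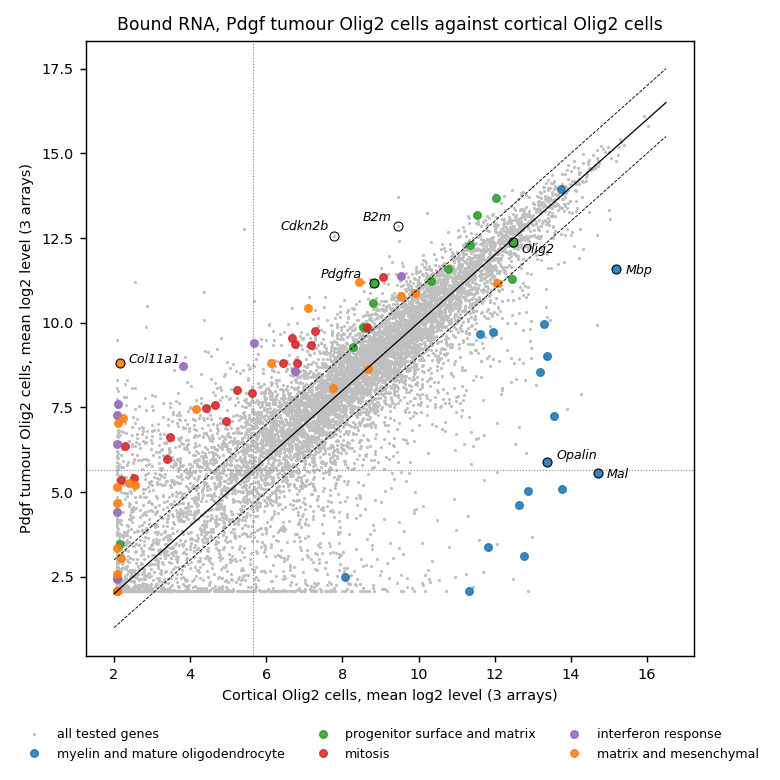
Mean log2 level of each tested gene in Pdgf tumour Olig2 cells (vertical axis, 3 arrays) against cortical Olig2 cells (horizontal axis, 3 arrays), with the solid line at equality, dashed lines at 2-fold and dotted lines at the dim limit of 5.64. Coloured points are members of 5 gene lists: myelin genes lie below the lower dashed line, except Plekhb1, and most interferon, matrix and mitosis genes lie above the upper one.

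**Figure D2:**
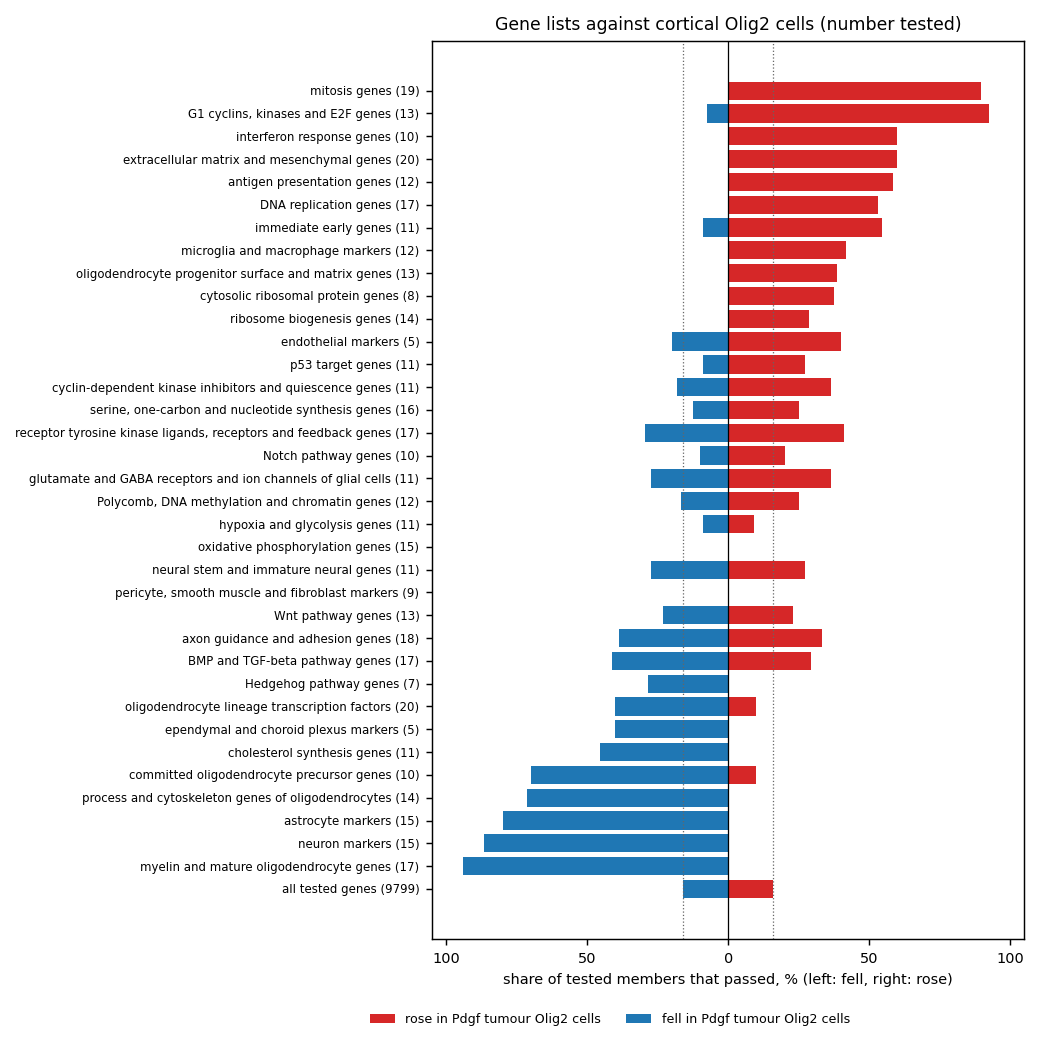
Share of tested members that rose (right) and fell (left) in Pdgf tumour Olig2 cells against cortical Olig2 cells, for each gene list with at least 5 tested members. Dotted lines mark the shares over all 9799 tested genes, 16.0% on each side.

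The transcription factors that define the lineage did not pass between the groups. Olig2 was at 12.25, 12.52 and 12.41 in Pdgf tumour Olig2 cells and at 12.44, 12.46 and 12.51 in cortical Olig2 cells. The groups overlapped, and the difference was -0.08 ± 0.40 (SE, n = 3 each, adjusted p = 0.89). Olig1, the close relative of Olig2, differed by -0.09 ± 0.15 (adjusted p = 0.647). Sox10, which drives oligodendrocyte genes from the progenitor stage onward, was lower by 0.57 on all 3 tumour arrays and did not pass (difference -0.57 ± 0.33, adjusted p = 0.147). Nkx2-2, a homeodomain factor of progenitors and early differentiation, was at 12.26, 13.14 and 12.47 in tumour cells and 11.86, 11.80 and 10.88 in cortical cells. Its groups did not overlap, and it did not pass either (1.11 ± 0.50, adjusted p = 0.0626). Both labels thus had their defining factors at high levels.

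Of 20 tested lineage transcription factors, 8 fell and 2 rose, with a median difference of -0.27. Those that rose numbered 4 on the deposited values, with or without median centring, and 4 in the fit on bound RNA arrays. Myrf, the activator of myelin genes, was at 5.01, 5.02 and 5.0 in Pdgf tumour Olig2 cells and at 10.04, 9.92 and 9.76 in cortical Olig2 cells. It was dim on every tumour array, at least 19.2-fold lower (adjusted p = 1.57e-14). Nkx6-2, a homeodomain factor of myelinating oligodendrocytes, was at least 25.3-fold lower, and the zinc-finger factor St18 at least 10.9-fold lower. Id4, an inhibitor of basic helix-loop-helix factors, was at 3.62, 6.49 and 5.92 in tumour cells, 1 of these arrays being dim, and 11.73, 11.76 and 11.66 in cortical cells, and with dim levels set to the limit fell by 5.70 on the log2 scale. Hes5, a Notch target, fell 6.07-fold. Sox8, which acts together with Sox10, fell 2.33-fold with overlapping arrays and an adjusted p of 0.0498. The other 2 that fell, Sox9 and Sox4, were dim on all tumour arrays and near the limit in cortical cells, where 1 and 2 arrays were dim. The 2 factors that rose were Id2, another inhibitor of basic helix-loop-helix factors, at 2.57-fold, and Zeb1, a zinc-finger repressor known from epithelial-mesenchymal transition, at 2.78-fold.

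Myelin genes were the group furthest below their cortical level. Of 20 listed genes 17 were measured and tested; 16 fell and none rose, against 16.0% of all tested genes that fell. Their median difference was -6.30, or -5.68 with dim levels set to the limit, against 0.06 over all tested genes. Mbp, myelin basic protein, was at 11.27, 11.94 and 11.55 in Pdgf tumour Olig2 cells and at 15.20 on all 3 arrays of cortical Olig2 cells. The arrays did not overlap, and Mbp fell 12.2-fold (-3.61 ± 0.25, adjusted p = 3.32e-13). Cnp, a myelin-associated phosphodiesterase, was at 9.81, 10.34 and 9.79 in tumour cells against 13.27, 13.39 and 13.21 in cortical cells. It fell 9.94-fold (-3.31 ± 0.44, adjusted p = 2.81e-07). Mog, a surface protein of the outermost myelin lamella, was at 5.90, 4.23 and 5.10 in tumour cells, dim on 2 of 3 arrays, against 13.76, 13.72 and 13.80 in cortical cells. With dim levels set to the limit it fell by 8.03 on the log2 scale. Mal, a proteolipid of myelin sorting, was at 5.91, 4.80 and 6.0 in tumour cells, 1 of them dim, against 14.65, 14.69 and 14.77 in cortical cells, and fell by 8.85 on the same scale. Mag, an adhesion protein of the inner myelin membrane, was dim on all 3 tumour arrays and at least 127-fold lower. Ermn, a cytoskeletal protein of myelin, was at least 139-fold lower; Aspa, the enzyme that releases acetate from N-acetylaspartate, at least 72.7-fold; and Mobp, another structural myelin protein, at least 51.3-fold. Cldn11, the tight-junction protein of myelin, kept a level well above the limit in tumour cells (8.54, 8.50 and 8.61, against 13.25, 13.09 and 13.28 in cortical cells) and fell 25.2-fold. The smallest falls were those of the lipid enzymes Ugt8a, which makes galactosylceramide, at 4.70-fold, and Fa2h, which hydroxylates fatty acids, at 3.82-fold. Plekhb1 was the 1 myelin gene that did not pass, at 13.89, 14.06 and 13.85 in tumour cells and 13.62, 13.74 and 13.89 in cortical cells. RNA of all tagged cells of a sample was read on 1 array, so fewer cells of a type and less RNA per cell cannot be told apart.

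Cytoskeletal genes of mature oligodendrocytes and the early-commitment genes were lower as well. Of 14 tested cytoskeletal genes, 10 fell and none rose, with a median of -2.68. Pdlim2, an actin-linked PDZ-LIM protein, was at 6.42, 5.58 and 6.43 in Pdgf tumour Olig2 cells, 1 of these arrays being dim, and 12.74, 12.87 and 12.88 in cortical Olig2 cells, a 103-fold fall. Anln, the actin-binding protein anillin, which has a known part in cytokinesis and is also made by myelinating oligodendrocytes, fell 33.8-fold. Septin4, a filament-forming GTPase, fell 27.1-fold, and Tppp, a tubulin-polymerizing protein of oligodendrocytes, 22.4-fold. Of 10 tested genes of committed precursors, 7 fell and 1 rose, with a median of -1.82. Gpr17, the receptor that marks newly committed precursors, was at 10.91, 12.80 and 11.15 in tumour cells and 13.33, 13.30 and 13.53 in cortical cells. The groups did not overlap, with tumour replicate 2 nearest to cortex, and Gpr17 fell 3.41-fold (-1.77 ± 0.45, adjusted p = 0.00146). Bmp4, a secreted ligand of the same stage, was at 6.72, 8.43 and 7.52 in tumour cells, also highest in replicate 2, and 10.53, 10.37 and 10.86 in cortical cells, an 8.20-fold fall. Enpp6, a choline phosphodiesterase of newly forming oligodendrocytes, was dim on all tumour arrays and at least 5.78-fold lower. Cnksr3 fell 13.1-fold and Rras2, a Ras-family GTPase, 10.9-fold. Bcas1, which marks early myelinating cells, and the kinase gene Fyn did not pass, at differences of 0.38 and -0.90. The member that rose was Itpr2, an intracellular calcium channel, dim on all cortical arrays and at the limit in tumour cells.

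Cholesterol synthesis, which supplies myelin membrane, was lower in part. Of 11 tested genes of the pathway 5 fell and none rose (median -0.81): Mvd 3.59-fold, Fdft1 3.37-fold, Msmo1 3.25-fold, Sc5d 2.90-fold and Lss 2.82-fold. These are enzymes of the mevalonate, squalene and sterol steps. Sqle, which oxidizes squalene, was at 10.82, 11.09 and 11.32 in Pdgf tumour Olig2 cells and 11.01, 11.44 and 11.56 in cortical Olig2 cells and did not pass.

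Surface and matrix genes of progenitors ran the other way. Of 16 listed, 13 were measured and tested; 5 rose, none fell and 8 did not pass, with a median of 1.22. Pdgfra was at 10.83, 11.48 and 11.19 in Pdgf tumour Olig2 cells and at 8.79, 8.77 and 8.96 in cortical Olig2 cells. Every tumour array was above every cortical array, and Pdgfra rose 5.01-fold (2.32 ± 0.50, adjusted p = 0.000247). Ptprz1, a receptor phosphatase that carries chondroitin sulphate, was at 10.46, 10.90 and 10.40 against 8.79, 8.40 and 9.20, a 3.45-fold rise. Cspg5, a membrane proteoglycan, was at 13.47, 14.00 and 13.57 against 12.13, 12.29 and 11.68, a 3.13-fold rise. Scrg1, a small secreted protein, rose 3.10-fold. The fifth to pass, the matrix proteoglycan gene Vcan, was dim on all 6 arrays. Cspg4, which encodes the progenitor antigen NG2, was at 10.002, 9.81 and 9.73 in tumour cells and 9.11, 8.37 and 8.42 in cortical cells; the arrays did not overlap, but the difference of 1.22 ± 0.57 did not pass (adjusted p = 0.0717). Bcan, a proteoglycan of the brain's matrix, differed by -0.14 ± 0.28. On the deposited values as they stand, 9 of the 13 passed, and 8 with these values centred on each array's median. Vcan's call was lost without any 1 of the 6 arrays, at adjusted p-values of 0.0721 to 0.107.

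**Figure D3:**
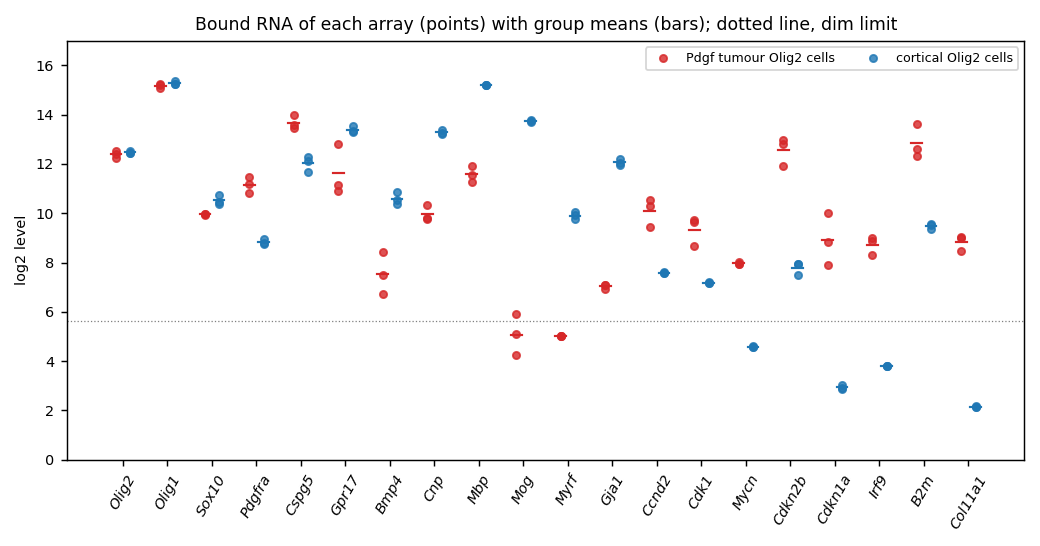
Log2 level of 20 genes on each of the 3 arrays of Pdgf tumour Olig2 cells (red, left) and of cortical Olig2 cells (blue, right), with bars at the group means. Olig2 and Olig1 overlap between the groups, myelin genes such as Mbp and Mog and the astrocyte gene Gja1 are lower on every tumour array, and Pdgfra, Cdkn2b, Cdkn1a, Irf9, B2m and Col11a1 are higher on every tumour array.

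PDGF ligands themselves were not higher. Pdgfa was at 6.54, 5.89 and 5.56 in Pdgf tumour Olig2 cells, 1 of these arrays being dim, and 7.93, 7.62 and 8.01 in cortical Olig2 cells, a 3.62-fold fall (adjusted p = 0.00321). Pdgfc fell 2.44-fold. Pdgfb was dim on all 6 arrays, as was Pdgfrb, the receptor of pericytes; whether the probe set for Pdgfb would read a transgene is not given in the sources used here. Of 17 tested genes of receptor tyrosine kinase signalling, these ligands and receptors included, 7 rose and 5 fell, 1 of each while dim on all 6 arrays. Etv4, an ETS factor downstream of receptor signalling, was at 7.57, 7.07 and 7.21 in tumour cells and 6.20, 5.54 and 4.51 in cortical cells, where 2 arrays were dim, a rise of 1.45 on the log2 scale with dim levels set to the limit. The feedback inhibitors of the same pathway that rose included Spry1 (2.83-fold), Spry4 (at least 2.23-fold) and the phosphatase Dusp6 (2.42-fold). Fgfr2, a fibroblast growth factor receptor of mature oligodendrocytes, was at 2.36, 2.45 and 2.45 in tumour cells against 7.97, 7.97 and 8.38 in cortical cells, at least 5.50-fold lower. Besides Fgfr2, Pdgfa and Pdgfc, the genes that fell were Etv1, another ETS factor (adjusted p = 1.46e-15), and Fgfr3 (adjusted p = 1.64e-15). Of these, 1 was dim on all 6 arrays.

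Genes of cell division rose together. Of 19 tested mitosis genes 17 rose and none fell, against 16.0% of all tested genes that rose; 2 of the 17, Foxm1 and Kif11, were dim on all 6 arrays. The median difference was 2.59, or 1.92 with dim levels set to the limit. Cdk1, the kinase that starts mitosis, was at 9.63, 8.66 and 9.71 in Pdgf tumour Olig2 cells and at 7.20, 7.16 and 7.17 in cortical Olig2 cells. Cdk1 rose 4.44-fold (2.15 ± 0.74, adjusted p = 0.0154), with every tumour array above every cortical one. Ccna2, the S-phase and G2 cyclin, was at 8.91, 9.20 and 10.04 against 6.36, 6.67 and 7.26, a 6.17-fold rise. Nusap1, a spindle protein, rose 7.31-fold, Birc5, an inhibitor of apoptosis that is also part of the chromosomal passenger complex, 5.55-fold, Ccnb2, a mitotic cyclin, 5.17-fold, and Cenpa, the histone of centromeres, 4.87-fold. Top2a, the topoisomerase that untangles chromosomes, was dim on all cortical arrays and at least 5.21-fold higher. Aurkb, the kinase of the passenger complex, was at least 4.88-fold higher, with its cortical arrays just under the limit. Cdc20, an activator of the anaphase-promoting complex, had non-overlapping arrays but did not pass (1.24 ± 0.58, adjusted p = 0.0745), and Cenpe was dim on all 6 arrays. With any 1 array left out, 14 to 16 mitosis genes rose.

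Promoters of 14 of the 19 mitosis genes were in the RefSeq table on GRCm38.p6, as windows of 300 bases from 250 before to 50 after the transcription start. On either strand, the CCAAT box (CCAAT) was in 12 of the 14 genes (85.7%) and in 41.1% of all 27025 genes of the table. The cell cycle genes homology region (CHR, TTTGAA) was in 10 of the 14 (71.4%) and in 20.2% of all genes. The E2F site GGCGGGAA was in 0 of the 14 and in 2.52% of all genes. Both the CCAAT box and the CHR are known elements of G2 and mitosis promoters. Those of 3 genes that rose are shown, with each CCAAT and TTTGAA in capitals; on the opposite strand they read ATTGG and TTCAAA.
Cdk1 (chr10:69352863-69353162, minus strand): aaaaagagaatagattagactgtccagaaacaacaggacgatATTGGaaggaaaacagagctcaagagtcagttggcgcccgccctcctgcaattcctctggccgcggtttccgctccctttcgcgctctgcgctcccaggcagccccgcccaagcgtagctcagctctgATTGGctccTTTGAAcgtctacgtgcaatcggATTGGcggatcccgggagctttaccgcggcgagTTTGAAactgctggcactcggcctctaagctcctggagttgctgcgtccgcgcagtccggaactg
Ccnb2 (chr9:70421505-70421804, minus strand): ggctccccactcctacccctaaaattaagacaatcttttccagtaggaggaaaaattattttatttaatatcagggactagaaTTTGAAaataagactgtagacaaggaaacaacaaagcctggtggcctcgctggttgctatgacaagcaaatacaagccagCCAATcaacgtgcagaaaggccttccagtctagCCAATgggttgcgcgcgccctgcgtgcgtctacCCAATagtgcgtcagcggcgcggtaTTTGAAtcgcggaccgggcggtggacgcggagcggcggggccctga
Top2a (chr11:99024140-99024439, minus strand): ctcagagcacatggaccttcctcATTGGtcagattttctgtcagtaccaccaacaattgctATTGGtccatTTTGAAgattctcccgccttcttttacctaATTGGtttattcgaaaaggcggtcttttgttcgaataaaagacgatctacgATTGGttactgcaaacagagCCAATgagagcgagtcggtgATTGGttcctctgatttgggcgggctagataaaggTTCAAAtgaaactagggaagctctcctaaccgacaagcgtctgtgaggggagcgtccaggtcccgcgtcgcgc
In these windows Cdk1 and Ccnb2 held 3 CCAAT and 2 TTTGAA matches each, and Top2a held 6 and 2. The windows of Nusap1 and Birc5, which also rose, held 0 matches of either motif. The CCAAT box was not particular to the mitosis list, as 8 of 9 antigen presentation genes with a window held it (88.9%). A match is a description of the letters only.

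Genes of DNA replication were higher too. Of 17 tested (18 measured), 9 rose, none fell and all 17 had a positive difference, with a median of 1.66. On the deposited values as they stand all 17 passed as higher, and 12 with these values centred on each array's median. Mcm2, a subunit of the replicative helicase, was at 9.61, 8.94 and 9.72 in Pdgf tumour Olig2 cells and 7.24, 7.22 and 7.23 in cortical Olig2 cells, a 4.58-fold rise. Mcm3, another subunit, rose 4.12-fold, and Rrm2, the inducible subunit of ribonucleotide reductase, 4.58-fold. Gins2, of the helicase complex, had 2 dim cortical arrays and rose by 2.47 on the log2 scale with dim levels set to the limit. Mcm4 and Mcm7 were higher on every tumour array by 0.95 and 0.84 and did not pass.

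Of 13 tested genes of G1 entry, 12 rose and 1 fell (median 1.93). Ccnd2, cyclin D2, was at 10.53, 9.46 and 10.28 in Pdgf tumour Olig2 cells and 7.60, 7.58 and 7.59 in cortical Olig2 cells. It rose 5.66-fold (2.50 ± 0.50, adjusted p = 0.000116). The other D cyclins rose less, Ccnd1 3.18-fold and Ccnd3 3.25-fold, and their kinase gene Cdk4 rose 2.10-fold. Mycn, which encodes N-Myc, was at 7.96, 8.01 and 7.93 in tumour cells and 4.59, 4.60 and 4.58, all dim, in cortical cells, at least 5.01-fold higher. Its relative Myc was at 8.75, 7.60 and 7.90 in tumour cells and also dim in cortical cells, at least 5.43-fold higher. E2f1, the transcription factor released at the G1 restriction point, was at least 2.05-fold higher. E2f2 passed while dim on all 6 arrays, and E2f3 was the 1 that fell, at levels near the limit.

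Inhibitors of the cell cycle did not move as a group. Of 11 tested, 4 rose and 2 fell, 1 of each (Tob1 and Cdkn1b) while dim on all 6 arrays, against 16.0% of all tested genes on each side. Cdkn2b, which encodes the Cdk4 and Cdk6 inhibitor p15, was at 12.79, 11.93 and 12.97 in Pdgf tumour Olig2 cells and at 7.94, 7.51 and 7.92 in cortical Olig2 cells. The groups were far apart, and Cdkn2b rose 27.4-fold (4.77 ± 0.65, adjusted p = 3.60e-07). Cdkn1a, which encodes p21, was at 10.01, 7.91 and 8.85 in tumour cells and 3.03, 2.90 and 2.89, all dim, in cortical cells. It was at least 9.73-fold higher (adjusted p = 6.00e-10). Cdkn2c, which encodes p18, was at 10.58, 11.17 and 11.54 against 9.88, 9.94 and 8.77, a 2.96-fold rise whose call was lost without tumour replicate 3 (adjusted p = 0.0558) and without cortical replicate 3 (adjusted p = 0.0817). Cdkn1c, which encodes p57, was at 7.33, 7.31 and 7.46 against 9.62, 9.57 and 9.73, a 4.84-fold fall. Rb1 was at 10.34, 10.74 and 10.71 against 10.56, 10.36 and 11.07, and did not pass. Among 11 tested p53 targets, which include Cdkn1a, 3 rose and 1 fell. Besides Cdkn1a, Pmaip1 (adjusted p = 2.86e-05) and Bbc3 (adjusted p = 4.95e-16) rose, 1 of them while dim on all 6 arrays. Mdm2 and Ccng1, which p53 also activates, differed by -0.57 and 0.30 and did not pass. Sesn2, a stress-response gene, was at least 2.98-fold lower.

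The genes with the largest changes are given by a rule of size. Of those with both group means above the limit, 27 rose and 85 fell at least 8-fold. Hpgd, the enzyme that breaks down prostaglandins, was at 11.23, 9.79 and 10.89 in Pdgf tumour Olig2 cells and 5.08, 5.43 and 6.56 in cortical Olig2 cells, 2 of them dim, the largest rise at 30.9-fold. Cdkn2b came next. Cnn2, the actin-binding calponin 2, was at 13.58, 14.30 and 13.24 against 9.55, 9.31 and 9.50, a 19.1-fold rise. Other genes named by this rule were Irgm1, an interferon-inducible GTPase, at 14.7-fold; Igfbp3, a secreted binder of insulin-like growth factors, at 13.4-fold; the interferon-induced membrane protein gene Ifitm3 at 13.2-fold; the secreted factor gene Metrnl at 12.7-fold; Resp18 at 12.4-fold; the keratin gene Krt1 at 11.99-fold; Nab2, a co-repressor of Egr proteins, at 11.01-fold; and Aard at 10.9-fold. Krt1 and Nab2 had 1 dim cortical array each.

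Among genes dim on all 3 cortical arrays, Rflna, a filamin-binding protein gene, had the largest bound. It was at 11.78, 10.40 and 11.44 in Pdgf tumour Olig2 cells and 2.54, 2.56 and 2.56 in cortical Olig2 cells, at least 47.4-fold higher. Serpina3n, a secreted protease inhibitor known from reactive glia, was at 12.46, 9.90 and 10.36 in tumour cells and at least 38.4-fold higher. The homeobox gene Meox1 was at 10.72, 11.41 and 9.37 in tumour cells and at least 29.0-fold higher. Next by the bound were Klf10, a zinc-finger factor induced by TGF-β (at least 21.9-fold), Rasl11a (18.9-fold), the interferon-inducible GTPase gene Gbp3 (15.0-fold), the transcription factor gene Irf8 (14.3-fold), the immunoproteasome subunit gene Psmb8 (12.1-fold), the potassium channel gene Kcna5 (11.5-fold) and Dach2 (11.2-fold). Irf8, best known in myeloid cells, was at 10.18, 8.40 and 9.86 in tumour cells and at 2.08 on each cortical array; its bound RNA was 0.90 below tumour total RNA and did not pass in that comparison.

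The largest falls among genes above the limit were mostly genes of oligodendrocytes and astrocytes. Opalin, a membrane protein of oligodendrocytes, was at 6.35, 5.66 and 5.64 in Pdgf tumour Olig2 cells, 1 of these arrays being dim, against 13.28, 13.30 and 13.58 in cortical Olig2 cells, a 182-fold fall. After Pdlim2 came Ptgds, prostaglandin D synthase, at 8.37, 6.86 and 7.15 against 14.08, 13.78 and 13.86, an 87.1-fold fall. Car2, carbonic anhydrase 2 of oligodendrocytes, fell 83.4-fold and the transferrin gene Trf 79.0-fold. The others were Fam107a (69.4-fold), the sphingosine receptor gene S1pr5 (52.9-fold), the planar polarity gene Prickle1 (46.4-fold, with 1 tumour array dim), Anln, the tetraspanin gene Cd82 (32.7-fold), the gap-junction gene Gja1 (32.6-fold) and the aromatic amino acid decarboxylase gene Ddc (31.1-fold). Among genes dim on all tumour arrays the largest bound was that of Efhd1, a calcium-binding protein of mitochondria, at 3.62, 3.72 and 3.72 in tumour cells against 12.80, 12.97 and 13.18 in cortical cells, at least 162-fold lower. Tmem125 was at least 150.6-fold lower and Gpr37, a receptor of myelinating cells, at least 149.7-fold. After Ermn and Mag followed Ppp1r14a (at least 115-fold), Adssl1 (85.4-fold), the tubulin-polymerizing relative Tppp3 (75.7-fold), Aspa and Itih3 (66.1-fold).

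Interferon-response genes and genes of antigen presentation were higher, with wide spread among the tumour arrays. Of 10 tested interferon genes (13 measured) 6 rose and none fell. Their median difference was 3.03, or 1.71 with dim levels set to the limit, and all 10 differences were positive. Irf9, the DNA-binding subunit of the interferon-activated complex ISGF3, was at 9.01, 8.32 and 8.87 in Pdgf tumour Olig2 cells and 3.81, 3.82 and 3.80, all dim, in cortical Olig2 cells. It was at least 8.51-fold higher (adjusted p = 2.97e-05). Ifitm3, which blocks virus entry, was at 10.70, 8.04 and 9.43 in tumour cells and 5.89, 5.61 and 5.53 in cortical cells, 2 of them dim, a 13.2-fold rise. Usp18, a protease that removes the ubiquitin-like protein ISG15, was at 9.61, 6.28 and 6.94 in tumour cells and at least 3.91-fold higher. Oasl2 and Ifit1 were at least 3.08-fold and 1.70-fold higher. Tumour replicate 1 was the highest of the 3 for Ifitm3, Usp18, Oasl2 and Ifit1. Irf1 had non-overlapping arrays but did not pass (adjusted p = 0.0554), and Gbp2, Rsad2 and Bst2 were dim on all 6 arrays.

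Of 12 tested antigen presentation genes 7 rose and none fell, and all 12 differences were positive (median 2.99, or 0.97 at the limit). B2m, the light chain of class I molecules, was at 12.33, 12.60 and 13.62 in Pdgf tumour Olig2 cells and 9.52, 9.35 and 9.55 in cortical Olig2 cells. B2m rose 10.4-fold (3.38 ± 0.73, adjusted p = 0.000272). Tumour replicate 3 was the highest for B2m and for the other genes of this list with levels above the limit, except Tap2, a subunit of the peptide transporter. H2-D1, a class I heavy chain, was at 10.02, 10.75 and 12.01 against 8.44, 9.0 and 8.29, a 5.09-fold rise at an adjusted p of 0.0454, a call that was lost when any array but tumour replicate 1 was left out (adjusted p = 0.0596 to 0.179). Psmb8 was at 8.57, 8.16 and 10.98 in tumour cells and dim on all cortical arrays. Without tumour replicate 3 its difference was 3.65 and the call was lost (adjusted p = 0.0768), as were those of the immunoproteasome gene Psmb9 (3.50, adjusted p = 0.157) and of the class II gene H2-Eb1 (4.10, adjusted p = 0.0650), so that 3 of the 12 genes rose without that array. Psmb9 also lost its call without any 1 cortical array (adjusted p = 0.0683 to 0.0696). H2-K1, a class I heavy chain that reached 11.14 in replicate 3, did not pass (2.60 ± 1.34, adjusted p = 0.101).

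Windows of 18 of the 22 tested interferon and antigen genes were in the RefSeq table on GRCm38.p6. The interferon-stimulated response element, read as GAAA, any 2 bases and GAAA again, a motif chosen after the values were seen, was on either strand in 6 of the 18 (33.3%) and in 3.99% of the 27025 genes. The 6 were B2m, Ifitm3, Ifit1, Gbp2, Bst2 and Rsad2, of which the first 3 rose. Their windows are shown with the motif in capitals, which on the opposite strand reads TTTC, any 2 bases and TTTC.
Ifitm3 (chr7:141010695-141010994, minus strand): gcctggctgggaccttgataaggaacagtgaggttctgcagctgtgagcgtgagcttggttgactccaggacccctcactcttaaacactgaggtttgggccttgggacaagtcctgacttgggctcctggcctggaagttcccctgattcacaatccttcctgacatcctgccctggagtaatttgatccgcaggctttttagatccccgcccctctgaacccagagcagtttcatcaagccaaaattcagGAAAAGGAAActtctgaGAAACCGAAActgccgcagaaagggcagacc
Ifit1 (chr19:34640639-34640938, plus strand): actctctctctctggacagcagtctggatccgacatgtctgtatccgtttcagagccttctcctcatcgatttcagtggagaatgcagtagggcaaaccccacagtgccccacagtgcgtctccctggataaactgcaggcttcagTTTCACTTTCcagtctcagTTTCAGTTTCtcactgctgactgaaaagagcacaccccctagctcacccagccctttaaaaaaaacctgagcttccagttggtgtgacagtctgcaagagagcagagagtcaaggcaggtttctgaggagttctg
B2m (chr2:122147437-122147736, plus strand): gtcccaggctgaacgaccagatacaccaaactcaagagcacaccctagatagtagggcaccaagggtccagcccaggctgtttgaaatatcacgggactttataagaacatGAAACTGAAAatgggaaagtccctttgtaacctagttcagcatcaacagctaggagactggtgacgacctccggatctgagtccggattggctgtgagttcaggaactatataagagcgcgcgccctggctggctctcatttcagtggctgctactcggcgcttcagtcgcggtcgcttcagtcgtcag
Ifitm3 and Ifit1 held 2 matches each and B2m held 1.

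Matrix and mesenchymal genes were also higher. Of 22 measured, 20 were tested; 12 rose and none fell, 2 of the 12 (Tnc and Col5a1) dim on all 6 arrays. The median was 2.63, or 0.78 with dim levels set to the limit. Col11a1, a fibrillar collagen chain, was at 9.04, 8.46 and 8.98 in Pdgf tumour Olig2 cells and 2.14, 2.15 and 2.16, all dim, in cortical Olig2 cells. The tumour arrays were close together, and Col11a1 was at least 9.06-fold higher (adjusted p = 1.95e-08). Other genes of this list differed among the tumour arrays, with replicate 1 the highest. Vim, the intermediate filament protein vimentin, was at 12.22, 9.81 and 11.57 in tumour cells and 8.48, 8.42 and 8.44 in cortical cells, a 6.73-fold rise. Cd44, a hyaluronan receptor, was at 9.44, 5.29 and 6.40 in tumour cells, 1 of them dim, and at least 2.64-fold higher. Anxa2, a membrane-binding annexin, was at 10.58, 7.24 and 8.61 against 6.11, 6.16 and 6.10, a 6.42-fold rise. Its partner S100a10 was at 11.41, 8.71 and 11.20 against 7.53, 7.23 and 6.55, a 10.1-fold rise. Fn1, fibronectin, was at 7.93, 7.24 and 6.40 in tumour cells and at least 2.92-fold higher. Timp1, an inhibitor of matrix proteases, was dim on 1 tumour array, and its call was lost without tumour replicate 1 (a difference of 2.16, adjusted p = 0.107) and without tumour replicate 3 (2.63, adjusted p = 0.0626). Lgals3 reached 8.56 in replicate 1 and was dim on the other 2 tumour arrays. S100a6 and Sparc did not pass, at -0.87 and -0.04.

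Cells other than Olig2 cells can carry such genes, so their markers were read in bound and in total RNA of the same tumours. Of 16 microglia and macrophage genes, 12 were tested; 5 rose and none fell. Their summed linear signal was 791 to 1591 in Pdgf tumour Olig2 cells, 178 to 209.6 in cortical Olig2 cells and 41442 to 44407 in Pdgf tumour total RNA. In bound RNA of the tumour, 9 of the 12 were dim on all 3 arrays, among them Csf1r, Aif1, Ptprc and Cd68. Ctss, cathepsin S, was at 9.50, 10.25 and 9.24 in tumour cells and 7.25, 7.04 and 6.93 in cortical cells, a 6.02-fold rise. Tyrobp, a signalling adaptor of myeloid cells, was at 7.76, 7.35 and 5.97 in tumour cells and at least 2.61-fold higher. C1qb was dim on 1 tumour array and at least 1.95-fold higher. C1qa and Fcer1g passed while dim on all 6 arrays, and the call of C1qa was lost without any 1 array other than tumour replicate 3 (adjusted p = 0.0560 to 0.0844). Among the tumour arrays, Tyrobp, C1qb and C1qa were lowest in replicate 3. All 12 genes were lower in bound than in total RNA of the tumour, with a median of -5.77, in a comparison where 32.2% of all tested genes passed, 16.9% higher and 15.3% lower in bound RNA. The higher genes were 52.4% of these calls, and 18.6% on the deposited values as they stand.

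Interferon and antigen genes were read in the same comparison. Of 10 interferon genes 1, Gbp2, was lower in bound RNA (median -0.06) and of 12 antigen genes 2 were lower, the class II genes Cd74 and H2-Aa (median -0.35). Irf9 differed by 0.32, B2m by -0.42 and Psmb8 by 0.96, and none of these passed. Of 20 matrix genes 13 were lower and 2 higher in bound RNA (median -2.02). Vim was lower by 1.51 in bound RNA and passed, as did Fn1 (-2.38) and Col4a1 (-3.57). Col11a1 (-1.54) and S100a10 (0.71) did not pass. Of 12 mural and fibroblast genes 9 were tested, and none passed between Pdgf tumour and cortical Olig2 cells. Their summed signal was 964 to 1317 in Pdgf tumour Olig2 cells, 443 to 671 in cortical Olig2 cells and 2759 to 9942 in tumour total RNA. Dcn, Col1a2, Rgs5, Lum and Tagln were dim on all 6 arrays. Acta2 was at 7.81, 7.79 and 6.24 in tumour cells and 6.25, 6.28 and 5.86 in cortical cells. The part of microglia or mural RNA in the results above was not tested.

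**Figure D4:**
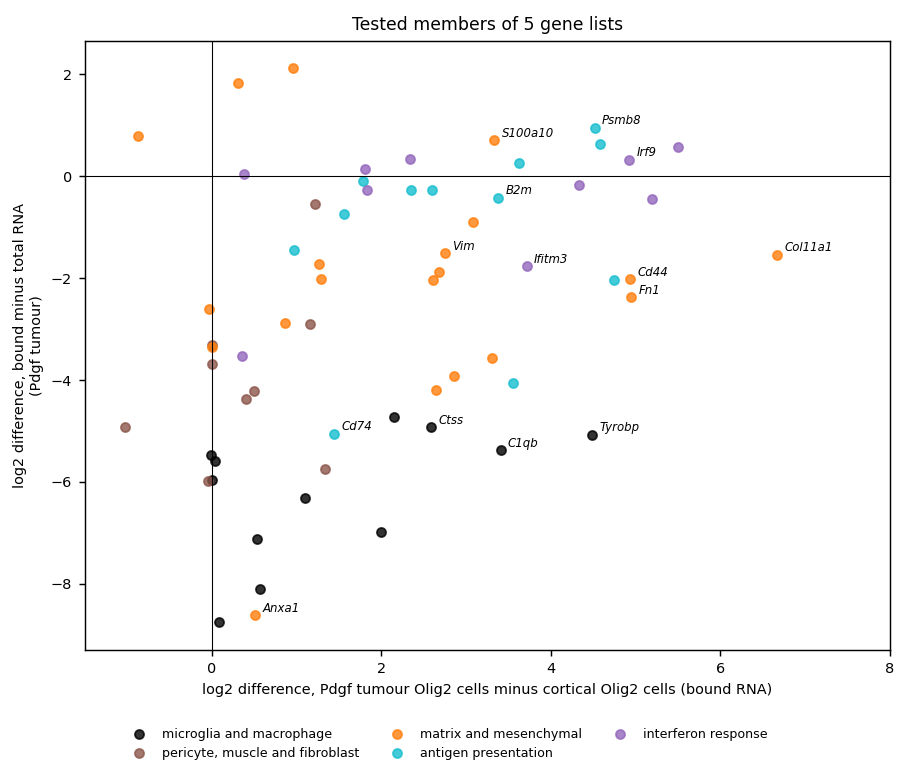
Difference of each tested microglia, mural, matrix, antigen and interferon gene between Pdgf tumour and cortical Olig2 cells (horizontal axis, log2) against its difference between bound and total RNA of the Pdgf tumour (vertical axis, log2). Microglia genes lie far below 0 on the vertical axis, while among interferon and antigen genes only Gbp2, Cd74 and H2-Aa passed as lower in bound RNA.

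Markers of the other neural cells were lower in Pdgf tumour Olig2 cells. Of 15 tested astrocyte genes 12 fell, 1 of them dim on all 6 arrays, and none rose, with a median of -2.14. Their summed signal was 13574 to 19373 in Pdgf tumour Olig2 cells and 51091 to 53660 in cortical Olig2 cells. Gja1, a connexin of astrocyte gap junctions, was at 6.95, 7.07 and 7.09 against 11.96, 12.02 and 12.21. Gjb6, another connexin, was dim on all tumour arrays and at least 22.3-fold lower, as was Aldh1l1, the folate enzyme used to mark astrocytes, at least 10.4-fold. Mlc1 was at least 28.8-fold lower. Slc1a3, a glutamate transporter, was at 8.08, 8.73 and 8.81 against 8.11, 8.03 and 7.81 and did not pass. Of 15 neuron genes 13 fell, 6 of them dim on all 6 arrays. The summed signal of the 15 was 2815 to 4122 in tumour cells and 9792 to 15009 in cortical cells. Stmn2, a neuronal tubulin regulator, was at 2.21, 2.28 and 2.28 in tumour cells and 8.26, 8.41 and 8.39 in cortical cells, at least 6.54-fold lower. Snap25, of the synaptic vesicle fusion machinery, was above the limit in both, at 10.30, 11.08 and 10.93 against 12.32, 12.87 and 13.29, a 4.16-fold fall. Cortical Olig2 cells thus also held more astrocyte and neuron marker RNA than tumour cells, whose part in the falls described above was not tested. Of 12 endothelial genes 5 were tested, with Cldn5 and Eng passing while dim on all 6 arrays (Cldn5 not without tumour replicate 1, adjusted p = 0.150, or cortical replicate 3, adjusted p = 0.0501) and Slco1c1, an organic anion transporter, at least 3.86-fold lower; the summed signal was 151 to 1592 in tumour cells and 884 to 1116 in cortical cells. Its highest tumour value was that of replicate 1, where the glucose transporter gene Slc2a1 was at 10.58, against 6.82 and 6.83 in replicates 2 and 3. Of 5 tested ependymal genes 2 passed, both dim on all 6 arrays, and Ttr, of the choroid plexus, was at 7.43, 2.75 and 8.54 in tumour cells and 11.04, 10.97 and 10.89 in cortical cells without passing. Of 10 measured lymphocyte and granulocyte genes 9 were dim throughout and removed, and the 1 tested, Cxcr2, was dim on all 6 arrays.

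Stem and precursor genes were mixed: 3 of 11 tested rose and 3 fell, against 16.0% of all tested genes on each side. Sox2, a factor of neural stem cells, was at 13.10, 13.35 and 13.10 in Pdgf tumour Olig2 cells and 13.07, 12.95 and 13.02 in cortical Olig2 cells, and Fabp7, a fatty acid binding protein of radial glia, differed by 0.65 ± 0.30; neither passed. Dcx, doublecortin of migrating neuroblasts, was at 6.60, 6.99 and 7.01 in tumour cells and at least 2.33-fold higher. Prom1, which encodes the CD133 antigen, was at 3.35, 3.70 and 3.47 in tumour cells against 9.90, 9.99 and 10.39 in cortical cells, at least 21.8-fold lower.

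Genes of the BMP and TGF-β pathways changed in both directions. Beside the counts of this paragraph, 16.0% of all tested genes rose and 16.0% fell. Of 17 tested 5 rose and 7 fell. Besides Bmp4 and Id4, Smad7, an inhibitory Smad, and Id3, an Id gene induced by BMP, fell 9.14-fold and 8.66-fold, and Id1 was at least 2.11-fold lower. Smad7 was at 7.87, 7.96 and 7.72 in Pdgf tumour Olig2 cells and 11.19, 10.92 and 11.02 in cortical Olig2 cells. Smad5, which carries the BMP signal, fell 2.05-fold, and the ligand gene Bmp2 was at least 1.25-fold lower. Besides Id2, the receptor gene Acvr1 rose 2.55-fold and the ligand gene Tgfb2 3.04-fold. The receptor gene Bmpr1a was at least 2.55-fold higher and the ligand gene Bmp7 at least 2.94-fold. Of 10 tested Notch pathway genes 2 rose and 1, Hes5, fell. Hey2, a Notch effector, was at 10.10, 11.04 and 10.08 against 8.98, 8.27 and 7.70, a 4.25-fold rise, and Dll3, a ligand-like inhibitor, rose 2.96-fold. Hes1 and Dll1 did not pass, at 0.45 and 0.06. Of 13 tested Wnt pathway genes 3 rose and 3 fell. Nkd1, a feedback inhibitor, was at 4.47, 4.52 and 4.51 in tumour cells and at least 7.77-fold lower. Receptor genes went both ways. Fzd1 and Fzd3 were at least 1.40-fold and 1.61-fold higher, and Fzd2 was lower by 4.55 on the log2 scale (adjusted p = 6.57e-18). For Fzd2 this is the plain difference, in which any level under the dim limit counts in full, and not a bound. Of 7 tested Hedgehog genes 2 passed, both dim on all 6 arrays.

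Metabolic and housekeeping groups were mixed, and their counts stand beside 16.0% of all tested genes that rose and 16.0% that fell. Of 15 tested genes of oxidative phosphorylation none passed, with a median of -0.03; Cox4i1, of cytochrome oxidase, was at 14.41, 14.48 and 14.44 in Pdgf tumour Olig2 cells and 14.43, 14.43 and 14.40 in cortical Olig2 cells. Of 8 tested ribosomal protein genes 3 rose, with a median of 0.82, and Rpl23 rose most (3.19-fold). All of their 8 differences were positive. Of 14 genes of ribosome assembly 4 rose, among them Ncl, nucleolin, at 2.36-fold. Of 16 tested genes of serine, one-carbon and nucleotide synthesis 4 rose, 1 of them dim on all 6 arrays, and 2 fell: Phgdh, the first enzyme of serine synthesis, was at 7.47, 7.14 and 7.50 against 9.92, 9.85 and 9.90, a 5.74-fold fall, and Cad, which begins pyrimidine synthesis, was at least 1.55-fold higher. Of 11 tested hypoxia and glycolysis genes 1 rose and 1 fell. The gene that rose, Adm, which encodes the vasodilator adrenomedullin, did not pass without any 1 of the 6 arrays (adjusted p = 0.0558 to 0.192). Ndrg1, which is induced by hypoxia and made by myelinating cells, was at 3.76, 3.50 and 3.50 against 11.54, 11.58 and 11.63, at least 61.3-fold lower. Vegfa was dim on all 6 arrays.

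The counts of this paragraph also stand beside 16.0% of all tested genes that rose and 16.0% that fell. Of 12 tested chromatin genes 3 rose and 2 fell. One of the 3, Hmga2, a chromatin protein of embryonic cells, did not pass without tumour replicate 1 (adjusted p = 0.282) or without any 1 cortical array (adjusted p = 0.0904 to 0.0920). Nor did Hmga2 pass on the deposited values as they stand (adjusted p = 0.0991). Dnmt1, the maintenance DNA methyltransferase, was at 10.32, 10.06 and 10.03 in Pdgf tumour Olig2 cells and 8.27, 7.77 and 6.04 in cortical Olig2 cells, a 6.85-fold rise, while Dnmt3a, a de novo methyltransferase, was dim on all tumour arrays and at least 4.44-fold lower. Of 11 tested channels and glutamate receptors 4 rose and 3 fell, and 2 rose without cortical replicate 2 or tumour replicate 2. Gria4, an AMPA receptor subunit, was at 7.31, 7.85 and 7.29 in tumour cells and dim in cortical cells, at least 3.57-fold higher, and Grm5, a metabotropic glutamate receptor, at least 5.31-fold higher. Gria1, another AMPA subunit, fell 2.59-fold, a call lost without any 1 array other than tumour replicate 2 (adjusted p = 0.0576 to 0.104). Of 18 tested adhesion and guidance genes 6 rose and 7 fell, 2 and 3 of them while dim on all 6 arrays; Efnb3, an ephrin ligand of oligodendrocytes, was at 7.76, 8.56 and 7.88 against 12.30, 12.26 and 11.999, a 17.4-fold fall, and Robo1, a Slit receptor, rose 3.15-fold. Of 11 tested immediate-early genes 6 rose and 1 fell. Fos was at 13.76, 12.75 and 13.19 against 10.08, 10.63 and 9.97, an 8.02-fold rise; Egr2 rose 8.58-fold and Egr1 2.58-fold. Arc, a gene of synaptic activity, was at 2.08 on each tumour array and 8.77, 8.85 and 8.46 in cortical cells, at least 8.27-fold lower. Jun overlapped between the groups and did not pass (0.23 ± 0.33). Of 2 tested long non-coding RNA genes 1, Meg3, passed while dim on all 6 arrays.

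Cortical Olig2 cells hold mature cells as well as progenitors, so the same genes were set beside bound RNA of cortical oligodendrocyte progenitors, 3 arrays whose titles name Pdgfra. Both comparisons share the Pdgf tumour arrays. The progenitor arrays had 3′ minus 5′ differences of 6.01 to 6.78 for actin and 5.96 to 6.71 for Gapdh, above those of either group above, and the part of this in the comparison was not tested. Against progenitors 3899 genes passed (39.8%), 1947 higher in Pdgf tumour Olig2 cells (19.9%) and 1952 lower (19.9%). Of 17 myelin genes 15 were lower and none higher, with a median of -4.47 against progenitors and -6.30 against cortical Olig2 cells. Neuron markers were lower alongside, 14 of 15 with a median of -3.90, while of 15 astrocyte markers 2 were higher and 5 lower (median 0.06); their part in the comparison was not tested. Mog was lower by 6.12 ± 0.82 and Mbp by 2.37 ± 0.25. Of the 10 committed precursor genes 5 were lower, Gpr17 by 2.43 ± 0.45 and Bmp4 by 2.51 ± 0.42. Of 13 progenitor surface and matrix genes 2 were higher and 2 lower, with a median of 0.41, and Pdgfra differed by 0.82 ± 0.50 (adjusted p = 0.156). Of 19 mitosis genes 11 were higher (median 1.77), with Cdk1 at 2.23 ± 0.74 (adjusted p = 0.0103). Of 13 genes of G1 entry 5 were higher; Ccnd2 was higher by 3.10 and Myc by 3.41, while Mycn was at 7.97 in tumour cells and 7.72 in progenitors and did not pass. Cdkn2b was higher by 4.42 ± 0.65 and Cdkn1a by 6.37 ± 0.58. Of 10 interferon genes 5 were higher (median 3.03), of 12 antigen genes 8 (median 2.99) and of 20 matrix genes 15 (median 2.83). Col11a1 was higher by 5.38 ± 0.77.

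**Figure D5:**
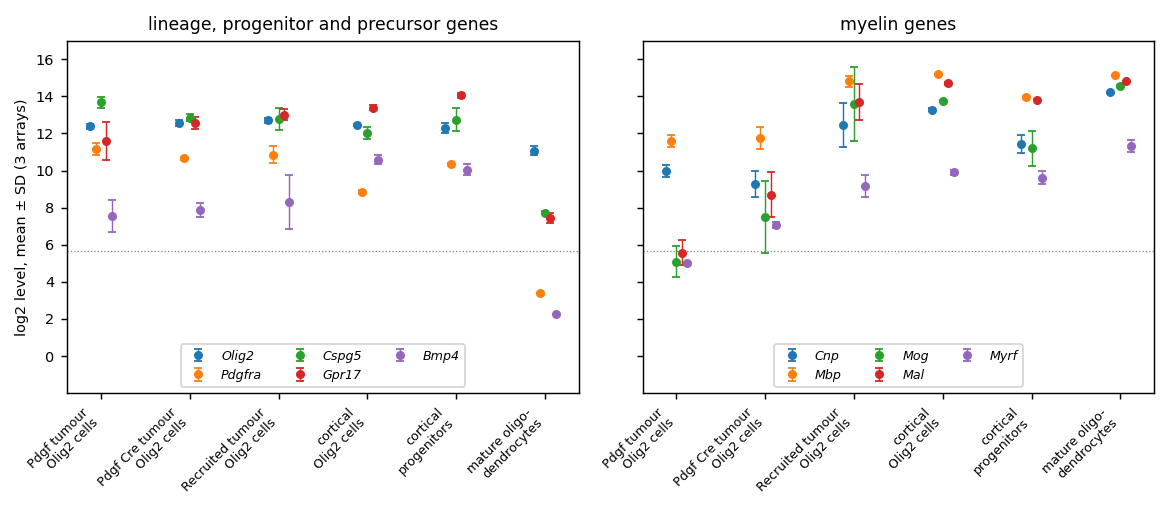
Mean log2 level ± SD (3 arrays) of 5 progenitor or commitment genes and 5 myelin genes in bound RNA of 6 groups. Pdgfra is at 11.17 in Pdgf tumour Olig2 cells, 8.84 in cortical Olig2 cells, 10.35 in cortical progenitors and 3.38 in mature oligodendrocytes, while Mog, Mal and Myrf are lowest in Pdgf tumour Olig2 cells among the 6 groups shown.

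The other tumour models of the series were compared with the Pdgf tumour directly. In Pdgf Cre tumours against Pdgf tumours, both bound RNA of Olig2 cells from 3 arrays, 1630 genes passed (16.6%), 761 higher (7.77%) and 869 lower (8.87%) in Pdgf Cre tumours. The higher genes were 46.7% of these calls, and 29.7% on the deposited values as they stand. Of the 17 myelin genes 7 were higher and none lower. Mal was at 8.71 ± 1.19 in Pdgf Cre tumour cells and 5.57 ± 0.67 in Pdgf tumour cells (SD, n = 3 each), and Mog at 7.51 ± 1.93 and 5.08 ± 0.83. Myrf was at 7.08 ± 0.17 in Pdgf Cre tumour cells and 5.01 ± 0.01 in Pdgf tumour cells. Mbp did not pass (0.16 ± 0.25). Of 19 mitosis genes 8 were higher in Pdgf Cre tumour cells (median 1.59), among them Cdk1 at 11.31 ± 0.25 against 9.33 ± 0.58 in Pdgf tumour cells. None of the interferon or antigen genes passed in either direction.

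In Recruited tumours against Pdgf tumours, 2524 genes passed (25.8%), 1250 higher (12.8%) and 1274 lower (13.0%) in Recruited tumours. Of 17 myelin genes 16 were higher and none lower, with a median of 5.48. Mog was at 13.59 ± 2.00 in Recruited tumour cells and 5.08 ± 0.83 in Pdgf tumour cells, and Mbp at 14.81 ± 0.31 and 11.59 ± 0.33. Astrocyte genes moved alongside: 12 of 15 were higher in Recruited tumour cells (median 2.99), with Gja1 at 13.41 ± 0.03 against 7.04 ± 0.08 in Pdgf tumour cells. Of 13 genes of G1 entry 7 were lower in Recruited tumour cells (median -1.65), and of 17 replication genes 6 were lower, Mcm3 by 2.39 ± 0.61. Cdkn2b was at 10.06 ± 1.62 in Recruited tumour cells and 12.56 ± 0.56 in Pdgf tumour cells, a difference of -2.51 ± 0.65 (adjusted p = 0.00207). Cdk1, Ccnd2, Cdkn1a, B2m, Irf9 and Col11a1 did not pass between these 2 models.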

How the data were processed

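RNA of 38 samples was read on 1-colour Affymetrix arrays, and 6 of them are compared here, with 5 further groups of 3 arrays set beside them. The authors deposited log2 values made with GCRMA, per the submitters' processing notes, with no version given. From each group's shared minimum, groups appear to have been processed apart, though no label says so. Such processing can narrow the spread among replicates and leaves the scale between groups open. From the deposited log2 values, 64 control probe sets were removed, and of the rest 15644 carried 1 gene, 687 none and 0 several; 15617 genes matched RefSeq by gene ID. Values were quantile-normalized over the 38 arrays with limma 3.58.1 in R 4.3.3, 1 probe set was kept per gene, and genes above a linear 50 in fewer than 3 arrays were removed (5845). The limma fit held all 12 groups (26 residual degrees of freedom, prior 2.06), with Benjamini-Hochberg adjustment over 9799 genes. The code was run on simulated data with normal noise and 1 spread per gene for all groups. That simulation held no group-wise processing and no floor for dim levels, so it cannot speak to these limits. Members and lists were chosen with earlier results of these data known. Named genes are members of the lists and, by rule, Olig2, Pdgfra, Pdgfa, Pdgfb, Cnp, the 12 largest rises and falls with both means above the limit and the 10 largest bounds on each side; 1 gene of this rule is not reported here. The labels do not say that replicates are separate tumours, so p-values measure only a spread between arrays. That spread is pooled over the 12 groups and is not that of the 6 arrays alone. The 3 arrays a group limit the precision. Alternatives were the deposited scale with and without median centring, quantile normalization or a fit on the 6 arrays, a fit on bound RNA, other filters, a trended robust prior, a replicate block and leaving out each array. Promoter windows came from a RefSeq table on GRCm38.p6.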

Additional observations from a re-analysis of the deposited data

Results flagged for a closer look

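Olig2, Pdgfra, Pdgfa, Pdgfb, Cnp and the genes named for the size of their change, 49 in all, were also compared between the tumour models, and a gene stands here where the difference between 2 models, itself tested in limma, passed. In Pdgf Cre minus Pdgf tumour Olig2 cells 14 genes passed. The 11 that were higher in Pdgf Cre tumours, on the log2 scale, were Ppp1r14a (3.84), Ermn (3.24), Tmem125 (2.53), Trf (2.49), Mag (2.42), Itih3 (2.39), Tppp3 (2.06), Anln (2.04), Aspa (2.02), Efhd1 (1.74) and Fam107a (1.59), and each of them had fallen in Pdgf tumours against cortex. The 3 that were lower were Hpgd (-2.03), Rasl11a (-1.92) and Cnn2 (-1.72), which had risen against cortex.

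In Recruited minus Pdgf tumour Olig2 cells 32 genes passed. Those higher in Recruited tumours were Itih3 (9.32), Tmem125 (8.84), Ermn (8.29), Ppp1r14a (8.06), Mag (7.46), Tppp3 (7.43), Efhd1 (7.22), Fam107a (6.67), Aspa (6.56), Adssl1 (6.54), Trf (6.52), Gja1 (6.37), Gpr37 (6.33), Opalin (5.48), Anln (4.95), Car2 (4.88), Ptgds (4.88), Pdlim2 (4.78), S1pr5 (4.63), Prickle1 (4.48), Ddc (4.27), Cd82 (3.50) and Cnp (2.48). Those lower were Krt1 (-4.14), Meox1 (-3.91), Irf8 (-3.65), Cnn2 (-2.76), Cdkn2b (-2.51), Rasl11a (-2.02), Aard (-1.97), Nab2 (-1.85) and Metrnl (-1.72). Both comparisons share the Pdgf tumour arrays with the comparison against cortex, so an array value that is high or low there moves all of them.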

How the results depend on the processing

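The count of 3133 genes was 3046 to 3136 with any 1 array left out (1504 to 1586 higher, 1542 to 1571 lower), and 3016 with the replicate number as a block (1479 higher, 1537 lower, 2949 shared with the 3133). Same-numbered arrays deviated with correlations of 0.238, -0.0949 and 0.260, and arrays of different number with -0.270 to 0.148. The numbers were not read as pairs because tumour and cortical arrays come from separate mice. Whether equal numbers mark shared handling was not tested. With the block 16 myelin, 7 progenitor, 17 mitosis, 10 G1, 8 interferon and 9 matrix genes passed; leaving out 1 array gave 16 myelin genes each time, 4 to 6 progenitor, 14 to 16 mitosis, 10 to 12 G1, 6 interferon and 9 to 13 matrix genes. On the deposited scale 3375 genes passed, 1871 higher and 1504 lower, with a median difference of 0.18 against 0.06, and progenitor genes that rose numbered 9, or 8 after median centring. On that scale all 17 replication genes and 4 lineage factors rose, against 9 and 2, and no endothelial gene did, against 2; 1 mural gene passed in each direction, against none, as with quantile normalization, a fit or a replicate block on the 6 arrays. Leaving out 1 array gave 3 to 7 antigen genes that rose and 2 to 4 channel genes. With a limit of log2 100 in 3 of the 6 arrays 2020 genes passed, 976 of them higher, 3 of 4 interferon and 5 of 10 matrix genes, fewer genes being tested (6955). Of the calls in other comparisons, the share higher in bound than total RNA was 52.4%, and 18.6% on the deposited scale, and in Pdgf Cre against Pdgf tumours 46.7%, and 29.7% on that scale. Genes dim on all 6 arrays left out, a choice made after seeing the data, 2642 passed. Over 202 named genes and 2973 values, 2881 kept call and direction, 92 values of 23 genes lost the call and none reversed. Named genes were mostly picked because they had passed on these same arrays, so these counts are no separate support. With the limit of log2 100 only 145 of the 202 were tested, and those not tested were not counted as lost. Krt1 lost its call only with the block (adjusted p = 0.0641). The scale between groups, which appear to have been processed apart, and dim levels limit the size of each fold.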
